A study of Mus musculus with 6 samples.

Results

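The 10 genes described here belong to the pathway that brings peptides from the proteasome to the cell surface on MHC class I. They are the heavy chain genes H2-K1 and H2-D1, the light chain gene B2m, the peptide transporter genes Tap1 and Tap2, the loading factor gene Tapbp, the immunoproteasome genes Psmb8, Psmb9 and Psmb10, and the transactivator gene Nlrc5. They were taken by symbol from a table of 54347 genes measured in Plcg2-/- and Plcg2+/+ mouse microglia, and each symbol matched 1 row. All 10 were among the 12652 genes tested, and their lowest mean level in either genotype, that of Nlrc5 in Plcg2+/+ libraries, was far above the filter of a mean of 1 TPM. In Plcg2-/- microglia 8 of the 10 rose, by between 1.55-fold (Tap2) and 3.02-fold (Tap1), and 0 fell; of all tested genes, 15.6% were called higher and 5.31% lower. The 2 that did not pass the test were the heavy chain genes.

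MHC class I displays fragments of a cell's own proteins to cytotoxic T cells. Proteasomes cut the proteins, the TAP transporter pumps the peptides into the endoplasmic reticulum, and tapasin, the product of Tapbp, holds the transporter beside an empty heavy chain paired with beta-2 microglobulin until a peptide fits. Interferons are known to raise most of these genes together and to swap the catalytic subunits of the proteasome for immunosubunits; in the brain, microglia are among the cells that can present antigen.

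The groups were 3 libraries from Plcg2-/- pups and 3 from Plcg2+/+ littermates, all C57BL/6 and aged 2 to 3 days. Plcg2 encodes phospholipase C gamma 2, a signalling enzyme downstream of immune receptors, and the comparison asks what its loss does to microglial transcripts. In both genotypes the cells were shaken off mixed glial cultures of forebrain on day 12 to 13, after growth in 10% serum with GM-CSF at 5 ng/mL, and then rested for at least 72 h in 1% serum with GM-CSF at 0.5 ng/mL. GM-CSF drives myeloid cells to grow, so every library comes from cells cultured with such a factor. The labels do not say that replicates are separate animals or cultures. Y-linked levels, given below, differ among libraries of a genotype, so these were not all taken from the same cells. A p-value here weighs a difference against the spread among libraries, part of which may be technical. Libraries are named by genotype and replicate number.

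Levels are TPM (the share of a library's transcripts, scaled so that each library has the same total), in which reads are divided by transcript length. The number of reads behind a value is therefore unknown. Plcg2 itself stood at 16.0, 16.7 and 16.1 TPM in Plcg2-/- libraries 1 to 3, against 45.2, 39.7 and 54.9 TPM in Plcg2+/+ libraries 1 to 3. It was lower in every library labelled Plcg2-/-, although transcript was still counted. Which part of the gene the allele lacks, the sources used here do not say. Over all tested genes 1971 were called higher and 672 lower (limma, Benjamini-Hochberg adjusted p below 0.05), and the median log2 fold change was 0.19. After median-of-ratios scaling, which sets that median to -0.0045, the calls were 975 and 993; fold changes below are on deposited TPM and are to be read relative to the median of 0.19. Transcripts of the mitochondrial genome took 5.00% to 8.68% of TPM in Plcg2-/- and 13.6% to 17.3% in Plcg2+/+ libraries. Summed TPM of 4 Y-linked genes was 58.6 in Plcg2-/- 1, 107 in Plcg2+/+ 2 and 112 in Plcg2+/+ 3, and at most 0.994 in the other libraries. This level was thus not balanced between genotypes.

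Markers of the labelled cell type were mixed. The myeloid genes Csf1r and Tyrobp were abundant in every library, whereas the microglial receptor gene Cx3cr1 had 0.0763 to 0.330 TPM in Plcg2-/- and 1.34 to 2.92 TPM in Plcg2+/+ libraries, and Tmem119 was at most 1.47 TPM in any library. Of 12 microglial markers 11 were tested, of which 3 rose and 3 fell. Fcrls, Aif1 and P2ry12 rose, with log2 fold changes of 3.28, 2.29 and 2.03 (limma adjusted p = 0.000922, 0.0333 and 0.0166). Itgam, Trem2 and Cx3cr1 fell, with log2 fold changes of -2.38, -1.73 and -1.27 (limma adjusted p = 0.000946, 0.0139 and 0.0203). Cx3cr1 passed the filter of a mean of 1 TPM only through the Plcg2+/+ libraries. The summed level of the microglial list was 5770 to 8827 TPM in Plcg2-/- and 5299 to 7301 TPM in Plcg2+/+ libraries. The T cell receptor complex genes Cd3e, Cd3d and Cd3g were listed at 0 in every library, and the T and NK cell list summed to 0.272 to 0.395 TPM in Plcg2-/- and 0.838 to 1.38 TPM in Plcg2+/+ libraries. B cell markers summed to at most 0.163 TPM in Plcg2-/- and 0.355 TPM in Plcg2+/+ libraries. Astrocyte markers summed to 43.0 to 59.6 TPM in Plcg2-/- and 30.4 to 60.5 TPM in Plcg2+/+ libraries, with 1 of 4 tested called (Aldh1l1, higher). The endothelial list summed to 16.9 to 25.3 TPM in Plcg2-/- and 5.62 to 8.02 TPM in Plcg2+/+ libraries, with 4 of its 5 genes below 1 TPM everywhere. The other, Kdr, rose to 19.3 ± 4.24 TPM in Plcg2-/- libraries, against 5.89 ± 1.44 TPM in Plcg2+/+ libraries (SD, n = 3 each; limma adjusted p = 0.00477). Dendritic cell markers summed to 2.37 to 5.28 TPM in Plcg2-/- and 10.9 to 12.2 TPM in Plcg2+/+ libraries, with 1 of 2 tested called, Clec9a, which fell to 1.59 ± 0.295 TPM in Plcg2-/-, against 9.14 ± 1.04 TPM in Plcg2+/+ libraries (limma adjusted p = 0.000972). Fibroblast markers summed to at most 3.07 TPM in Plcg2-/- and 1.94 TPM in Plcg2+/+ libraries, and neuronal markers to at most 9.84 TPM in Plcg2-/- and 10.9 TPM in Plcg2+/+ libraries. Oligodendrocyte markers summed to 47.6 to 84.9 TPM in Plcg2-/- and 50.1 to 116 TPM in Plcg2+/+ libraries, with 1 of 5 tested called (Cspg4, lower). Cspg4 averaged 0.471 TPM in Plcg2-/- libraries, so it passed the same filter only through the Plcg2+/+ libraries. The part of such cells in the results below was not tested. In bulk RNA, a different share of a cell type and a different amount of RNA per cell cannot be told apart.

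The light chain gene rose and the heavy chain genes did not pass the test. B2m encodes beta-2 microglobulin, the invariant partner of every classical class I heavy chain. Its level was 13266, 12531 and 10009 TPM in Plcg2-/- libraries 1 to 3, against 6786, 5899 and 6408 TPM in Plcg2+/+ libraries 1 to 3. The lowest Plcg2-/- value stood above the highest Plcg2+/+ value, and B2m ranked 5 among all genes of the table in Plcg2-/- and 22 in Plcg2+/+ microglia. The mean was 11935 ± 1708 TPM in Plcg2-/- and 6364 ± 445 TPM in Plcg2+/+ libraries (SD, n = 3 each). Fold changes are Plcg2-/- over Plcg2+/+ and were fitted to log2(TPM + 1). That of B2m was 0.90 in log2 units, with an SE of 0.19 (limma adjusted p = 0.0188), which is 1.86-fold with a 95% interval of 1.37 to 2.53. The call was lost after median-of-ratios scaling (log2 fold change 0.68, limma adjusted p = 0.0577, or 0.0937 with the replicate block added), with no filter on low values (0.329) and with the summed Y-linked level as a covariate (0.0578). It was also lost without Plcg2-/- 1, Plcg2-/- 2 or Plcg2+/+ 1, where the limma adjusted p was 0.0985, 0.0708 and 0.0774.

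H2-K1 and H2-D1 encode the K and D heavy chains, which form the peptide groove. H2-K1 had 4755, 5524 and 3184 TPM in Plcg2-/- libraries 1 to 3, against 3403, 3172 and 3273 TPM in Plcg2+/+ libraries 1 to 3. The first and second Plcg2-/- libraries were above all Plcg2+/+ libraries and the third lay inside their range. H2-D1 had 6929, 8910 and 5638 TPM in Plcg2-/- libraries 1 to 3, against 5300, 6418 and 4893 TPM in Plcg2+/+ libraries 1 to 3, and its groups overlapped in the same way, with Plcg2-/- 3 below Plcg2+/+ 2. The log2 fold changes were 0.41 ± 0.22 (SE) for H2-K1 and 0.35 ± 0.22 for H2-D1 (limma adjusted p = 0.223 and 0.286), with 95% intervals of -0.12 to 0.95 and -0.17 to 0.88. A change of the size of that of B2m lies within the interval of H2-K1, so these values do not show that the heavy chains were equal between genotypes. Across the alternatives tried, neither gene passed; the lowest limma adjusted p was 0.0896 for H2-K1, without Plcg2-/- 3, and 0.218 for H2-D1. Replicates of H2-K1 varied by 26.6% of the mean in Plcg2-/- and 3.52% in Plcg2+/+ libraries.

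Because heavy and light chain are read in the same library, their ratio does not depend on how the library is scaled. H2-K1 stood at 0.358, 0.441 and 0.318 of the level of B2m in Plcg2-/- libraries 1 to 3, against 0.501, 0.538 and 0.511 in Plcg2+/+ libraries 1 to 3. H2-D1 stood at 0.522, 0.711 and 0.563 of it in Plcg2-/- libraries 1 to 3, against 0.781, 1.09 and 0.764 in Plcg2+/+ libraries 1 to 3. Every Plcg2-/- ratio was below every Plcg2+/+ ratio for both genes. The log2 ratio differed by -0.48 for H2-K1 (pooled SD 0.17) and by -0.54 for H2-D1 (pooled SD 0.26). Both gave a two-sided exact permutation p of 0.1, the smallest that 3 against 3 libraries allow. Summed, the 2 heavy chain genes reached 0.881, 1.15 and 0.881 times the TPM of B2m in Plcg2-/- libraries and 1.28, 1.63 and 1.27 times in Plcg2+/+ libraries.

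**Figure D1:**
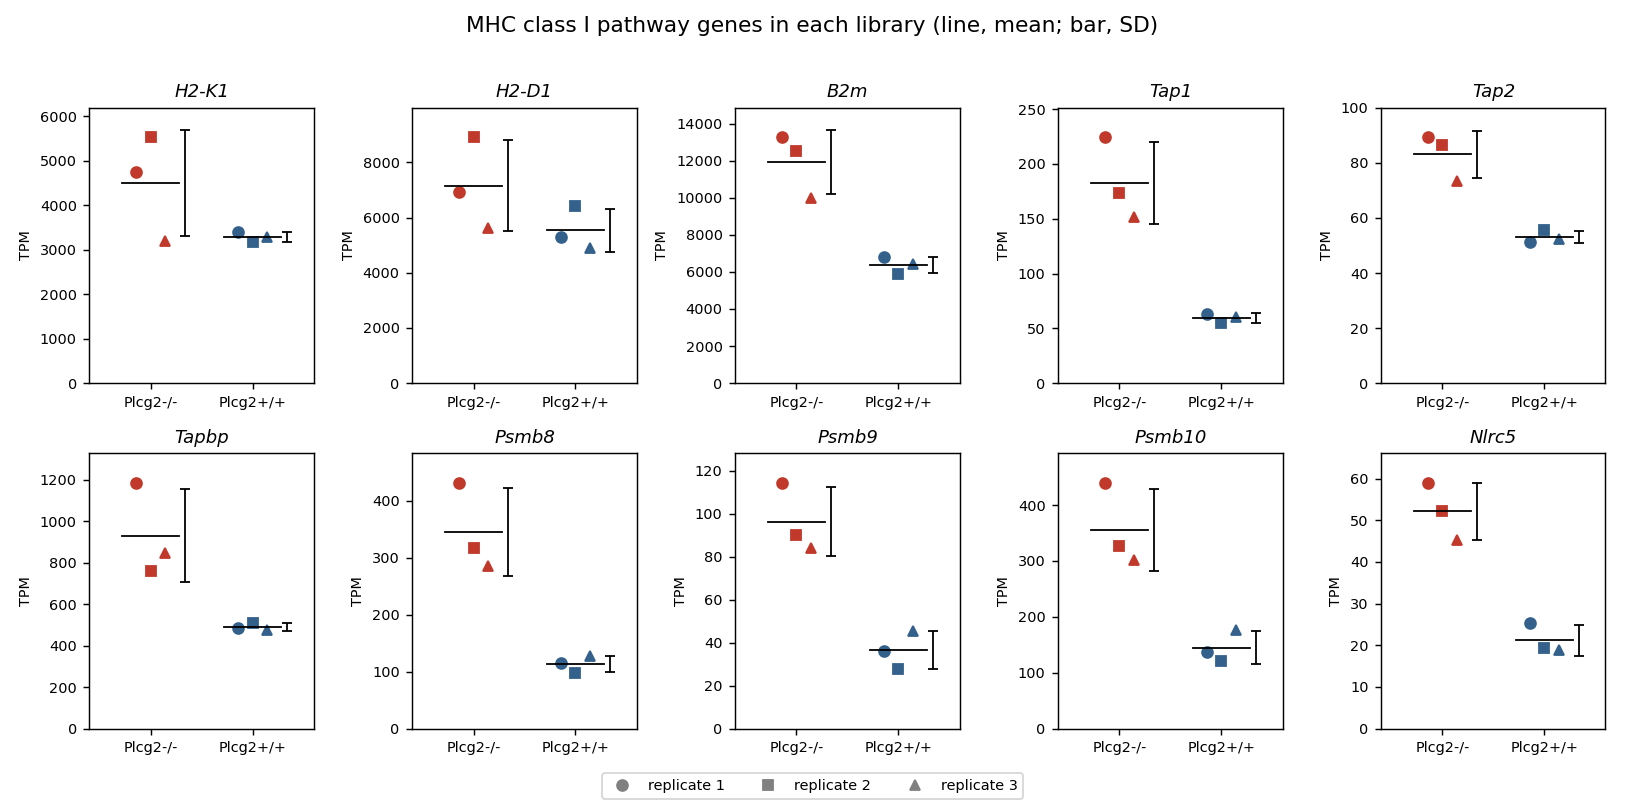
TPM of the 10 genes in each library, 1 panel per gene with its own linear axis from 0; points are the 3 libraries of a genotype, with marker shape giving the replicate number, lines are means and bars are SD. For 8 genes all Plcg2-/- points lie above all Plcg2+/+ points, while those of H2-K1 and H2-D1 overlap.

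The stretches below show the DNA ahead of the light chain gene and of the heavy chain genes. They are from RefSeq on GRCm38.p6, read 5′ to 3′ on the strand of the gene, and 8 of the 10 genes had an entry. Capitals mark matches, on either strand, to 4 short motifs. They are the interferon-stimulated response element (ISRE, searched as GAAA and GAAA with any 2 bases between), an NF-kB site (GGG and CC with any 5 bases between), the X2 part of the class I promoter module (TGACG) and its Y part (CCAAT). The B2m stretch is chr2:122147537-122147656 on the plus strand and ends 31 bases before the RefSeq start, that of H2-K1 is chr17:34000352-34000487 on the minus strand and ends 5 bases before it, and that of H2-D1, kept short because an annotated exon overlaps it, is chr17:35262913-35262942 on the plus strand and ends 152 bases before it.
B2m: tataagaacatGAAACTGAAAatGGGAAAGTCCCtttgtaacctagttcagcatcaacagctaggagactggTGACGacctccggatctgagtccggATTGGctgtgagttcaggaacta
H2-K1: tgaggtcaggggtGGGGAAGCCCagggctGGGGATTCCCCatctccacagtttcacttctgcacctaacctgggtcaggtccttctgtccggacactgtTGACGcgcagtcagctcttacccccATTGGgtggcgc
H2-D1: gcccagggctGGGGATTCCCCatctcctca
The 250 bases ahead of the RefSeq start of B2m held 1 ISRE match, which 2.98% of all 32851 RefSeq windows of that length hold. Those of H2-K1 (the start farther upstream) and H2-D1 held no match to these ISRE letters. Nor did those of Tap1, Tapbp, Psmb8, Psmb9 and Psmb10, which rose. The search took exact letters only, so a related element in these windows could go unmarked. In the H2-K1 stretch the unmarked bases tttcacttc, read on the other strand, come near the ISRE letters. The H2-K1 and H2-D1 windows shared the longest NF-kB stretch in capitals, TGACG and CCAAT in the same order and with the same distances between them. These lie at 111, 41 and 16 bases before the start of H2-K1 and 171, 101 and 76 bases before that of H2-D1. NF-kB, X2 and Y letters occur in 45.8%, 17.8% and 33.8% of all windows, and overlapping matches on both strands are marked as 1 run. Among the other genes with an entry, the overlapping windows of Psmb9 and Tap1 held NF-kB, X2 and Y letters, that of Tapbp held CCAAT, that of Psmb8 held the letters TTCNNNGAA, known as the interferon gamma-activated sequence (7.02% of all windows), and that of Psmb10 held none of these 5. A match is a description of letters, and binding was not measured here.

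The transporter and loading genes all rose. Tap1 and Tap2 encode the paired subunits of the TAP transporter. Tap1 had 224, 173 and 151 TPM in Plcg2-/- libraries 1 to 3, against 63.3, 54.4 and 59.98 TPM in Plcg2+/+ libraries 1 to 3. Its log2 fold change was 1.59 ± 0.16 (SE; limma adjusted p = 0.00166), or 3.02-fold with a 95% interval of 2.32 to 3.93. Tap2 had 89.3, 86.7 and 73.5 TPM in Plcg2-/- libraries 1 to 3, against 51.4, 55.5 and 52.4 TPM in Plcg2+/+ libraries 1 to 3. The groups did not overlap for either gene, and Tap2 rose by 0.63 ± 0.11 (SE) in log2 units (limma adjusted p = 0.0120). The call of Tap2 was lost after median-of-ratios scaling (log2 fold change 0.42, limma adjusted p = 0.0657) and without Plcg2-/- 1 or Plcg2+/+ 1 (0.0576 and 0.0524).

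The ratio of the 2 transporter genes was higher in every Plcg2-/- library than in any Plcg2+/+ library. Within a library, Tap1 stood at 2.51, 2.00 and 2.06 times Tap2 in Plcg2-/- libraries 1 to 3, against 1.23, 0.980 and 1.14 times in Plcg2+/+ libraries 1 to 3, so their per-length levels were near each other in Plcg2+/+ and apart by a factor of at least 2.00 in Plcg2-/- libraries. The log2 ratio differed by 0.97 (pooled SD 0.17; two-sided exact permutation p = 0.1, the smallest possible); this pair was chosen after its values were seen. Tapbp, tapasin, had 1184, 759 and 844 TPM in Plcg2-/- libraries 1 to 3, against 484, 509 and 474 TPM in Plcg2+/+ libraries 1 to 3. It rose by 0.90 ± 0.18 (SE) in log2 units (limma adjusted p = 0.0170), with Plcg2-/- 1 well above the other libraries of its genotype. The call of Tapbp was lost without Plcg2-/- 3 or Plcg2+/+ 1 (limma adjusted p = 0.0527 and 0.0680), and after median-of-ratios scaling with the replicate numbers as a block (0.0518).

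The 3 immunosubunit genes rose together. Psmb8, Psmb9 and Psmb10 encode the inducible catalytic subunits that replace the constitutive Psmb5, Psmb6 and Psmb7 when new proteasomes are built. Psmb8 had 432, 317 and 285.0 TPM in Plcg2-/- libraries 1 to 3, against 115, 98.2 and 128 TPM in Plcg2+/+ libraries 1 to 3. Its log2 fold change was 1.58 ± 0.18 (SE; limma adjusted p = 0.00261), or 2.99-fold with a 95% interval of 2.21 to 4.04. Psmb9 had 114, 90.2 and 84.3 TPM in Plcg2-/- libraries 1 to 3, against 36.2, 27.98 and 45.6 TPM in Plcg2+/+ libraries 1 to 3. Psmb10 had 439.9, 326 and 303 TPM in Plcg2-/- libraries 1 to 3, against 137, 121 and 177 TPM in Plcg2+/+ libraries 1 to 3. Psmb9 rose by 1.39 ± 0.20 and Psmb10 by 1.29 ± 0.20 in log2 units (SE; limma adjusted p = 0.00589 and 0.00696). All Plcg2-/- values of the 3 genes lay above all Plcg2+/+ values, and their calls held after median-of-ratios scaling and without any single library, the highest limma adjusted p without 1 library being 0.0392.

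Of the constitutive partners, 1 of 3 rose, Psmb7. Psmb5 had 153, 165 and 145 TPM in Plcg2-/- libraries 1 to 3, against 123, 142 and 177 TPM in Plcg2+/+ libraries 1 to 3. Psmb6 had 278, 288 and 249.7 TPM in Plcg2-/- libraries, against 298, 268 and 289.7 TPM in Plcg2+/+ libraries. Both overlapped between genotypes and did not pass (log2 fold changes of 0.08 ± 0.15 and -0.07 ± 0.11, SE; limma adjusted p = 0.733 and 0.676), and the sign for Psmb5 turned after median-of-ratios scaling, at -0.13, without mitochondrially encoded genes, at -0.052, and without Plcg2+/+ 1, at -0.041. Psmb7 had 117, 95.3 and 95.9 TPM in Plcg2-/- libraries, against 71.3, 61.3 and 79.1 TPM in Plcg2+/+ libraries, and rose by 0.54 ± 0.14 (SE) in log2 units (limma adjusted p = 0.0372). Its call was lost after median-of-ratios scaling (limma adjusted p = 0.110) and without any 1 library other than Plcg2+/+ 3 (0.0558 to 0.127).

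Each inducible subunit stood higher relative to its partner in every Plcg2-/- library than in any Plcg2+/+ library. The ratio of Psmb8 to Psmb5 was 2.82, 1.92 and 1.97 in Plcg2-/- libraries 1 to 3, against 0.932, 0.690 and 0.723 in Plcg2+/+ libraries 1 to 3, so the per-length level of the inducible transcript was above that of the constitutive one in every Plcg2-/- library and in no Plcg2+/+ library. The ratio of Psmb9 to Psmb6 was 0.412, 0.314 and 0.338 in Plcg2-/- libraries 1 to 3, against 0.121, 0.105 and 0.157 in Plcg2+/+ libraries 1 to 3, and stayed below 1 in both. The ratio of Psmb10 to Psmb7 was 3.76, 3.42 and 3.15 in Plcg2-/- libraries 1 to 3, against 1.92, 1.98 and 2.24 in Plcg2+/+ libraries 1 to 3, and was above 1 in both. In log2 units the 3 ratios were higher in Plcg2-/- by 1.51 (pooled SD 0.27), 1.48 (pooled SD 0.26) and 0.75 (pooled SD 0.12). Groups did not overlap for any of the 3, and each gave a two-sided exact permutation p of 0.1, the smallest possible here; adjusted over the 6 ratios computed, the value is the same.

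**Figure D2:**
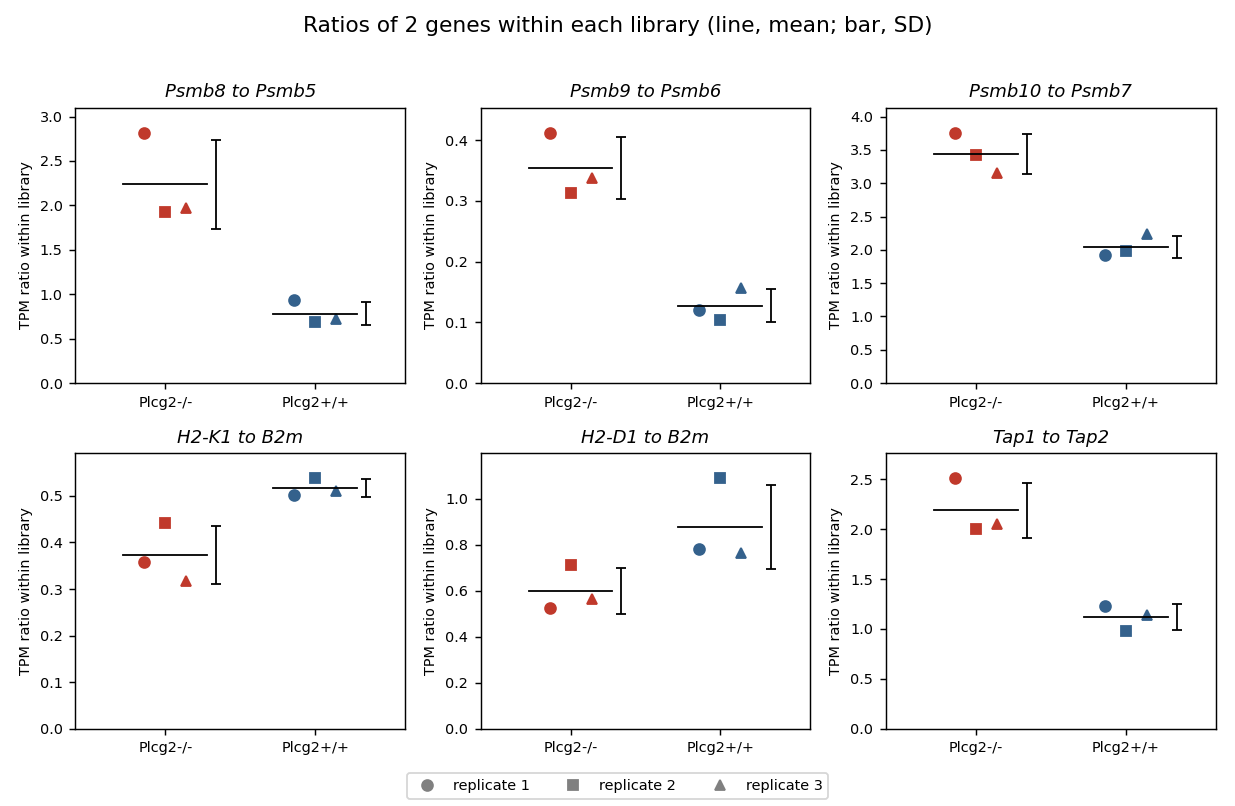
Ratio of the TPM of 2 genes within each library, on linear axes from 0; points are libraries, lines are means and bars are SD over 3 libraries of a genotype. Immunosubunit to constitutive subunit and Tap1 to Tap2 ratios are higher in all Plcg2-/- libraries, and both heavy chain to B2m ratios are lower in all of them.

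Nlrc5 encodes a NOD-like receptor family protein that acts in the nucleus as a transactivator of class I genes, through factors bound to the X and Y parts of their promoters. It had 58.99, 52.3 and 45.2 TPM in Plcg2-/- libraries 1 to 3, against 25.4, 19.3 and 18.8 TPM in Plcg2+/+ libraries 1 to 3. The genotypes were apart by more than the range within either. Its log2 fold change was 1.27 ± 0.16 (SE; limma adjusted p = 0.00338), or 2.41-fold with a 95% interval of 1.86 to 3.12, and the call held after median-of-ratios scaling (1.06, limma adjusted p = 0.00820) and without any single library (highest 0.0236). Nlrc5 was the least abundant of the 10 genes in both genotypes. Nlrc5 (chromosome 8, 94434356 to 94527272) and Psmb10 (chromosome 8, 105935735 to 105938444) lie on the chromosome of Plcg2, 22.97 and 11.6 Mb before it on GRCm38. How that allele was made and bred, the sources used here do not say.

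As a group, 8 of 10 genes (80.0%) were called higher, against 15.6% of all genes tested, and 0 were called lower, against 5.31%. All 3 Plcg2-/- values lay above all 3 Plcg2+/+ values for the same number, 8 of 10, against 32.4% of all genes tested. The median log2 fold change of the 10 was 1.08, against 0.19 for all genes. After median-of-ratios scaling 6 of 10 were called higher, against 7.71% of all genes tested; B2m and Tap2 were the losses and the median was 0.87. When 1 library was left out, 6 genes were called if that was Plcg2-/- 1, 7 if it was Plcg2-/- 2 or Plcg2-/- 3, 5 if it was Plcg2+/+ 1, and 8 if it was Plcg2+/+ 2 or Plcg2+/+ 3. Tap1, Psmb8, Psmb9, Psmb10 and Nlrc5 were called in each of these 6 fits. Higher calls over all 12652 tested genes, 1971 with every library, moved as well. They were 559, 1801 and 786 without Plcg2-/- 1, 2 and 3, and 782, 940 and 2106 without Plcg2+/+ 1, 2 and 3. With both libraries numbered 1 left out, which leaves 2 against 2, the count was 0 (limma adjusted p = 0.0503 for Tap1, the lowest of the 10), while 71 genes of all tested were called higher. In that fit genotype and Y-linked level coincide and cannot be told apart. Summed Y-linked TPM was 0.783 and 0.994 in its Plcg2-/- libraries and 107 and 112 in its Plcg2+/+ libraries. With TPM rescaled without mitochondrially encoded genes 8 of 10 were called higher, beside 1223 of all tested genes. With the summed Y-linked level as a covariate 7 were, beside 941 of all tested genes.

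**Figure D3:**
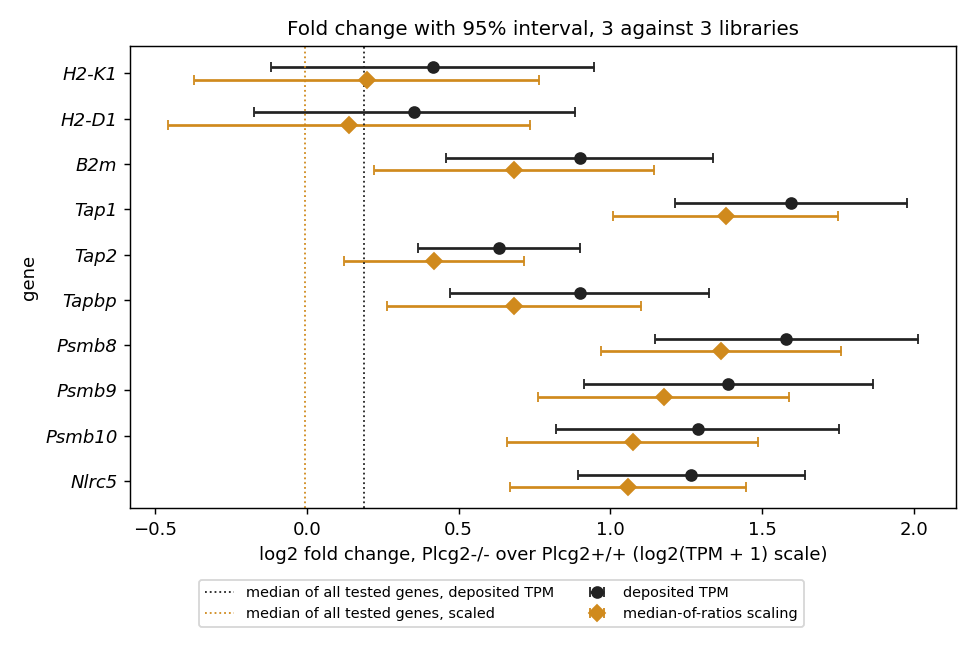
Log2 fold change of Plcg2-/- over Plcg2+/+ libraries with its 95% interval for each of the 10 genes, from deposited TPM (circles) and after median-of-ratios scaling (diamonds); dotted lines mark the median of all tested genes under each scale. The intervals of H2-K1 and H2-D1 include 0 on both scales, and those of the other 8 genes lie above 0 on both.

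The libraries of a genotype differed in a patterned way. Of the Plcg2-/- libraries, number 1 was the highest for 8 of the 10 genes, number 2 for the 2 heavy chain genes, and number 3 was the lowest for 9, with Tapbp as the exception. Plcg2+/+ libraries shared the top places, with 4 genes highest in number 1, 3 in number 2 and 3 in number 3; the 3 immunosubunit genes were all highest in number 3 and lowest in number 2. Summed over the 10 genes, class I pathway transcripts took 2.75%, 2.88% and 2.06% of all TPM in Plcg2-/- libraries 1 to 3, against 1.64%, 1.64% and 1.55% in Plcg2+/+ libraries 1 to 3.

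Ordered by level, B2m led in both genotypes, followed by H2-D1, H2-K1, Tapbp, Psmb10, Psmb8 and Tap1. In Plcg2-/- libraries the neighbours Psmb10 and Psmb8 overlapped (303 to 439.9 and 285 to 432 TPM), as did Psmb9 and Tap2 (84.3 to 114 and 73.5 to 89.3 TPM). In Plcg2+/+ libraries B2m and H2-D1 overlapped (5899 to 6786 and 4893 to 6418 TPM), as did Psmb10 and Psmb8, and Tap1 and Tap2 (54.4 to 63.3 and 51.4 to 55.5 TPM). The other neighbours had separate ranges. Psmb9 stood ahead of Tap2 in Plcg2-/- and behind it in Plcg2+/+ microglia.

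Most of these genes sit together in the genome. Psmb9, Tap1, Psmb8 and Tap2 lie side by side within 34335 bases of the MHC region on chromosome 17 (34181987 to 34216321, GENCODE M21, GRCm38), and H2-K1 (33996017 to 34000347), Tapbp (33915899 to 33929292) and H2-D1 (35262730 to 35267499) lie on the same chromosome, while B2m is on chromosome 2 (122147686 to 122153083). All 10 are protein coding. Psmb9 and Tap1 are read in opposite directions from starts that face each other, and their annotated spans share 212 bases. Counting could blur some of these genes. Of the distinct 31-base words in the annotated transcripts of H2-K1 and H2-D1, 22.8% and 26.9% also occur in transcripts of another gene, most often in each other, so the split between these 2 genes is uncertain. The share was 26.9% for Tapbp, mostly with the antisense transcript Gm19412, 14.3% for Tap2, 13.7% for Psmb8, 4.79% for Psmb9, 4.09% for Tap1, 0.579% for Nlrc5, and 0 of 830 and 0 of 1758 words for B2m and Psmb10. Whether the libraries kept the strand, the sources used here do not say, and the span of B2m lies within that of Patl2, which is read from the other strand.

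Other genes of the pathway were read from lists of related genes. Each list's count stands against 15.6% of all tested genes called higher and 5.31% called lower, and its median against 0.19. These shares belong to the fit on deposited TPM with every library, and the calls over all tested genes differ under the alternatives. Of 21 other class I and class Ib heavy chain genes, 14 were tested, 9 rose and 0 fell, with a median log2 fold change of 0.80. With the replicate numbers as a block 8 rose and 1 fell: H2-Q6 was no longer called (limma adjusted p = 0.0582, and 0.0429 without the block), and H2-M2 was called lower (0.0108, and 0.403 without the block). H2-M2 had 28.9, 78.0 and 23.2 TPM in Plcg2-/- libraries 1 to 3, against 43.4, 144 and 40.7 TPM in Plcg2+/+ libraries 1 to 3, so it was lower in each of the 3 pairs while the genotypes overlapped; these 2 genes are named because their calls turned. H2-T24 averaged 94.96 ± 6.01 TPM in Plcg2-/- against 35.2 ± 2.29 TPM in Plcg2+/+ libraries, and H2-T22 averaged 254 ± 77.8 TPM in Plcg2-/- against 78.2 ± 11.3 TPM in Plcg2+/+ libraries (SD, n = 3 each; limma adjusted p = 0.000922 and 0.00609). Hfe, a class I-like regulator of iron uptake, rose by 0.79 and H2-Q4 by 1.20 in log2 units (limma adjusted p = 0.0105 and 0.0203). The call of Hfe was lost without Plcg2-/- 1 (0.0571), and that of H2-Q4 after median-of-ratios scaling (0.0526) and without Plcg2-/- 1, Plcg2-/- 2, Plcg2+/+ 1 or Plcg2+/+ 2 (0.0517 to 0.0899). After median-of-ratios scaling 3 of the 14 were called, and without Plcg2-/- 1, Plcg2-/- 2, Plcg2+/+ 1 and Plcg2+/+ 2 the counts were 2, 3, 3 and 3. The H2-Q and H2-T genes are close relatives, so their separate values are uncertain.

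Folding and trimming factors of the endoplasmic reticulum did not share one direction. Of 10 tested, 1 rose and 2 fell, and the median log2 fold change was -0.23. All 3 Plcg2-/- values lay below all 3 Plcg2+/+ values for 5 of the 10 and above them for 1. Over all tested genes the share above was 32.4%, and the share below was not computed. Tapbpl, the tapasin relative that edits peptides, averaged 40.1 ± 7.97 TPM in Plcg2-/- against 17.3 ± 0.820 TPM in Plcg2+/+ libraries (SD, n = 3 each) and rose by 1.15 ± 0.15 (SE) in log2 units (limma adjusted p = 0.00403). Prkcsh, a glucosidase subunit, fell to 75.5 ± 4.90 TPM in Plcg2-/- libraries, against 111 ± 7.51 TPM in Plcg2+/+ libraries, and P4hb, a disulfide isomerase, to 349.5 ± 13.3 TPM, against 452 ± 24.6 TPM (limma adjusted p = 0.0153 and 0.0486). With the replicate numbers as a block P4hb was no longer called (limma adjusted p = 0.0695), nor without any 1 library other than Plcg2+/+ 3 (0.0939 to 0.137), and Prkcsh was not called without Plcg2-/- 1 or Plcg2-/- 3 (0.0690 and 0.0597). Counts of called genes were 5 after median-of-ratios scaling, 4 of them lower, against 975 higher and 993 lower over all 12652 tested genes. The count was 1 without Plcg2-/- 1 or Plcg2-/- 3. Of 9 cytosolic peptidase genes, 5 had all 3 Plcg2-/- values above all 3 Plcg2+/+ values on deposited TPM, against 32.4% of all tested genes. By calls 2 of the 9 rose, a share near the 15.6% of all tested genes and so not a result about the list. The 2 called were Lap3 and Dpp9, both rising by 0.53 in log2 units (limma adjusted p = 0.0183 and 0.0248). Both calls were lost after median-of-ratios scaling and without Plcg2-/- 1, Plcg2-/- 3, Plcg2+/+ 1 or Plcg2+/+ 2 (0.0523 to 0.104), each of which left 0 calls in that list; without Plcg2-/- 2 or Plcg2+/+ 3 there were 4.

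Around the catalytic core, 3 of 4 proteasome activator genes and 2 of 8 assembly genes rose, against 15.6% of all tested genes; the share of the assembly genes is near that of all genes, and with the replicate block 1 of the 8 was called. Psme1 and Psme2 encode the subunits of PA28, an interferon-inducible cap of the proteasome. Psme1 averaged 359 ± 77.4 TPM in Plcg2-/- against 149.0 ± 27.1 TPM in Plcg2+/+ libraries, and Psme2 averaged 422 ± 51.0 TPM in Plcg2-/- against 209 ± 51.8 TPM in Plcg2+/+ libraries (SD, n = 3 each; limma adjusted p = 0.00797 and 0.0147). Psme4, the single-chain activator PA200, rose by 0.72 in log2 units (limma adjusted p = 0.0244), and Psme3, the nuclear PA28 gamma, averaged 49.4 ± 4.85 TPM in Plcg2-/- against 36.7 ± 4.14 TPM in Plcg2+/+ libraries (limma adjusted p = 0.0586, and 0.0463 with the replicate numbers as a block). So 3 of these 4 genes rose and 0 fell; the count was 1 without Plcg2-/- 1 or Plcg2-/- 3. Psme3 was called without Plcg2+/+ 3 (0.0396). Psme2 was not called without Plcg2-/- 1, Plcg2-/- 3 or Plcg2+/+ 1 (0.0504 to 0.0701), nor Psme4 without Plcg2-/- 1, Plcg2-/- 3, Plcg2+/+ 2 or Plcg2+/+ 3 (0.0545 to 0.103) or after median-of-ratios scaling (0.0704). Pomp, the chaperone that assembles the core, averaged 344 ± 40.1 TPM in Plcg2-/- against 186 ± 11.3 TPM in Plcg2+/+ libraries (limma adjusted p = 0.00534) and kept its call without any single library (highest 0.0284). Psmg4 rose by 0.63 in log2 units (limma adjusted p = 0.0377), with no call under the replicate block (0.0603), after median-of-ratios scaling (0.122) or without any 1 library other than Plcg2+/+ 3 (0.0511 to 0.133); these were 2 of 8 assembly genes, and 1 was called without each of those 5 libraries.

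The calls among structural subunits depended on the scale. Of 11 non-catalytic subunits of the core particle, 5 rose and 0 fell, with log2 fold changes of 0.36 to 0.88 over the 11 and a median of 0.51. On deposited TPM all 3 Plcg2-/- values lay above all 3 Plcg2+/+ values for 10 of the 11, against 32.4% of all tested genes. Psma5 averaged 122 ± 23.04 TPM in Plcg2-/- against 65.6 ± 5.46 TPM in Plcg2+/+ libraries (SD, n = 3 each; limma adjusted p = 0.0111) and was the only one of the 11 called after median-of-ratios scaling (0.0238). Psma4, Psmb2 and Psmb3 rose by 0.55, 0.56 and 0.64 in log2 units (limma adjusted p = 0.0345, 0.0350 and 0.0369). Without Plcg2-/- 1, Plcg2-/- 3, Plcg2+/+ 1 or Plcg2+/+ 2 these 3 were not called (0.0757 to 0.130), nor were Psmb2 and Psmb3 without Plcg2-/- 2 (0.0653 and 0.0726). The count for the core was 1 without each of those 4 libraries, 2 without Plcg2-/- 2 and 11 without Plcg2+/+ 3. Of 18 subunits of the regulatory cap, 5 rose and 0 fell, against 15.6% and 5.31% of all tested genes. The median log2 fold change was 0.31, against 0.19. On deposited TPM all 3 Plcg2-/- values lay above all 3 Plcg2+/+ values for 13 of the 18, against 32.4% of all tested genes. Among the 5 were Psmc2, Psmd11, Psmd14 and Psmd3, by 0.59, 0.49, 0.38 and 0.40 in log2 units (limma adjusted p = 0.0175, 0.0338, 0.0451 and 0.0478). None of the 18 was called after median-of-ratios scaling or without Plcg2-/- 1, Plcg2+/+ 1 or Plcg2+/+ 2; counts were 3 without Plcg2-/- 2 or Plcg2+/+ 3 and 1 without Plcg2-/- 3, the call that was left being that of Psmc2.

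Among factors that act on class I promoters, 8 of 14 rose and 0 fell (median log2 fold change 0.52). Irf1, an interferon-regulated factor that binds ISRE letters, averaged 134 ± 15.9 TPM in Plcg2-/- against 43.5 ± 1.78 TPM in Plcg2+/+ libraries (SD, n = 3 each; limma adjusted p = 0.000922). Ciita, the class II counterpart of Nlrc5, had 3.96, 3.37 and 2.66 TPM in Plcg2-/- libraries 1 to 3, against 0.235, 0.409 and 0.303 TPM in Plcg2+/+ libraries 1 to 3 (limma adjusted p = 0.00316). Its Plcg2+/+ mean was 0.315 TPM, so Ciita passed the filter of a mean of 1 TPM only through the Plcg2-/- libraries. It is among the 8 counted. Nfkb1 rose by 0.56 in log2 units (limma adjusted p = 0.0222) and was not called after median-of-ratios scaling (0.0610) or without Plcg2-/- 1, Plcg2-/- 3 or Plcg2+/+ 1 (0.0660 to 0.0926). The count was 5 after median-of-ratios scaling, 3 without Plcg2-/- 1, Plcg2-/- 3 or Plcg2+/+ 1, and 5 without Plcg2+/+ 2. Of 6 tested genes of surface protein turnover and endoplasmic reticulum clearance, a list not limited to class I, 3 rose and 1 fell. Marchf1, a membrane ubiquitin ligase, averaged 106 ± 12.8 TPM in Plcg2-/- against 41.0 ± 7.77 TPM in Plcg2+/+ libraries (limma adjusted p = 0.00327). Ube2j1 and Sppl2a rose by 0.69 and 0.71 and Syvn1 fell by 0.40 in log2 units (limma adjusted p = 0.0212, 0.0304 and 0.0383), and without Plcg2-/- 1, Plcg2-/- 3, Plcg2+/+ 1 or Plcg2+/+ 2 none of these 3 was called (0.0659 to 0.115), which left a count of 1. Sppl2a was also not called without Plcg2+/+ 3 (0.0626) or after median-of-ratios scaling (0.0835), and Syvn1 without Plcg2-/- 2 (0.0676).

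**Figure D4:**
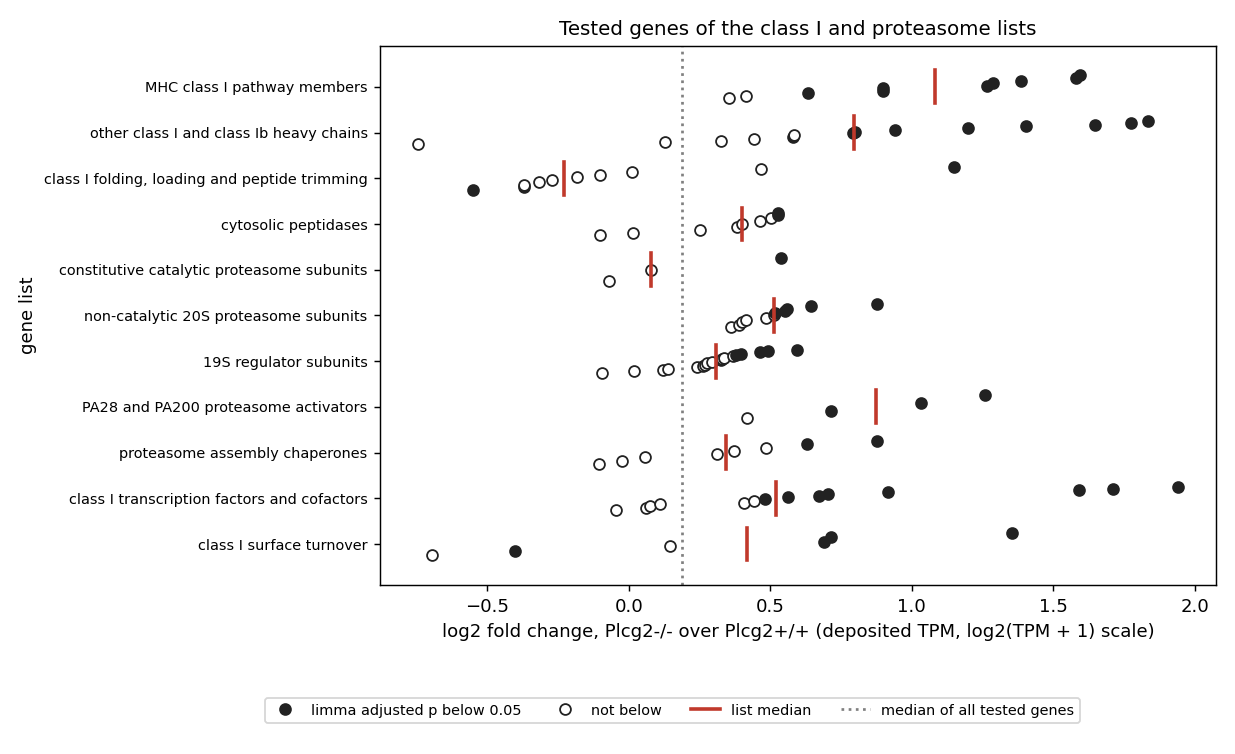
Log2 fold change of every tested gene of each list, from deposited TPM; filled points are genes with a limma adjusted p below 0.05, red bars are list medians and the dotted line is the median of all tested genes. The 10 class I pathway genes have a median of 1.08, and the 10 folding and loading genes one of -0.23.

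Of 8617 protein-coding genes outside these lists with a mean of at least 5 TPM, the 5 whose library profile was nearest to the mean profile of the 10 were Prpf38a, Pmaip1, Serinc3, Inka1 and Napsa. Nearness was the root mean square difference of centred log2(TPM + 1) values over the 6 libraries, which was 0.0745 for Prpf38a and 0.0936 to 0.103 for the other 4. Among the 10 themselves it was 0.0796 for B2m, 0.172 for Nlrc5, 0.174 for Tapbp and 0.408 for H2-D1, the farthest.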

How the data were processed

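RNA of cultured microglia was sequenced as polyA-selected, 150-bp paired-end libraries with about 20 M reads each, per the labels' protocols. The file deposited by the authors gives TPM for 54347 genes in each library. TPM keeps no depth, so the precision that depth gives is unknown. Salmon 1.3.0, DESeq2 1.30.1, R 4.0.4 and GRCm38.p6 are named per the submitters' processing notes, with no annotation release named. Of 54347 identifiers 54094 are in GENCODE M21; 9 of the 10 genes matched with their version, and H2-D1 without it.

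Genotype and replicate number come from the titles. The test kept genes that averaged 1 TPM or more and was run with limma 3.58.1 in R 4.3.3 on log2(TPM + 1) (two-sided, prior variance following the mean, Benjamini-Hochberg over 12652 genes), which understates changes of low genes. The fit was tested on simulated data. The members, lists and naming rule (Plcg2, all members, up to 4 called genes per list with the smallest p, all constitutive and activator subunits) were chosen with earlier results of these data known. The values of 1 gene that the rule names are not reported here. Nrdc was read under its older symbol Nrd1. Ratios were compared by exact permutation, two-sided. Deviations from genotype means correlated at 0.295, 0.193 and 0.147 between libraries of the same number, all above 0.1. Between libraries of different replicate number the correlations ran from -0.195 to 0.00369. The numbers come from the titles, and the labels do not say what they mark, so a pairing is not established. The fit given therefore has no block, and the replicate block is given as an alternative. Alternatives were other pseudocounts, filters, scalings and prior variances, the block, a Y-linked covariate and leaving out libraries.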

Additional observations from a re-analysis of the deposited data

How the results depend on the processing

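No alternative tried turned the direction of any of the 10 genes or of a ratio. Beside 1971 higher and 672 lower calls over all genes, there were 1226 higher with no filter on low values, 975 after median-of-ratios scaling, 1223 with TPM rescaled without mitochondrially encoded genes, 1104 higher and 1127 lower with median-of-ratios scaling and the replicate block, and 941 higher and 411 lower with the summed Y-linked level as a covariate. Leaving out 1 library gave 559 to 2106 higher and 276 to 644 lower calls. For the 10 genes it gave 5 to 8. With both libraries numbered 1 left out the count was 0, beside 71 higher and 35 lower over all genes. That alternative was chosen after seeing the data, and in it genotype and Y-linked level coincide. There the limma adjusted p of Plcg2 was 0.0697, at a log2 fold change of -1.46. Counts in either direction moved by more than 1.5 times as follows. With no filter on low values the other heavy chains had 4 calls, the constitutive subunits 0, the core and the regulatory cap 1 each, the assembly genes 1, the transcription factors 4 and the turnover genes 2. After median-of-ratios scaling the counts were 3 for heavy chains, 5 for folding genes, 0 for peptidases, constitutive subunits and cap, 1 for core and assembly genes and 5 for transcription factors; with the replicate block added they were 5 for folding genes, 0 for the same 3 lists, 1 for core and assembly genes and 4 for transcription factors. Without mitochondrially encoded genes they were 5 for heavy chains, 1 each for peptidases, core, cap and assembly genes, and 0 for constitutive subunits. With the Y-linked covariate they were 3 for heavy chains, 3 for transcription factors, 1 each for folding genes, peptidases, core, cap, assembly and turnover genes, and 0 for constitutive subunits. A constant prior variance gave 0 for constitutive subunits, 3 for the core, 2 for the cap and 1 for assembly genes, and a mean of at least 5 TPM gave 4 for peptidases. Leaving out 1 library gave 2 to 9 for heavy chains, 1 to 3 for folding genes, 0 to 4 for peptidases, 0 to 1 for constitutive subunits, 1 to 11 for the core, 0 to 3 for the cap, 1 to 3 for activators and turnover genes, 1 to 2 for assembly genes and 3 to 8 for transcription factors. The replicate block, without another scaling, gave 2483 higher and 815 lower calls over all genes and 8 of the 10; beside the calls of H2-Q6, H2-M2, P4hb, Psme3 and Psmg4 it left 1 assembly gene called and changed no other call of a named gene. Psmb5 turned to -0.13 under median-of-ratios scaling (with or without the block), to -0.052 without mitochondrially encoded genes and to -0.041 without Plcg2+/+ 1; leaving out 1 library gave -0.041 to 0.22. The causes were not tested. With 3 libraries a genotype, a ratio's exact p cannot be below 0.1, or 0.25 in pairs.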
